A study of Mus musculus with 104 samples.

Results

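Chemokines are small secreted proteins that steer immune cells, and 10 of their genes were followed here across aging mouse brain: Ccl2, Ccl3, Ccl4, Ccl5, Ccl6, Ccl8, Ccl12, Cxcl10, Cxcl13 and Cxcl16. They were found on the arrays by gene name, or by the current RefSeq symbol of the transcript a probe was designed on. This gave 12 probes for 10 genes out of 28785 gene names on the array design of 5 cohorts, and the same 12 probes out of 30992 gene names on the design of the other 2. Ccl5 and Cxcl16 have 2 probes each, and the other members have 1. The genes were selected on their array signals, which were higher in aged than in young C57BL/6 cerebellum or BALB hypothalamus, so in those cohorts the values below are a description with no test. In the remaining 5 cohorts the comparison of ages was tested.

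Whole tissue RNA was measured on 1-colour Agilent whole mouse genome arrays, 1 array per sample. The C57BL/6 cerebellum cohort held 4 young (2 to 3 months), 2 middle-aged (12 to 13 months) and 6 aged (21 to 23 months) male mice. The BALB hypothalamus cohort held 7 young (2 to 3 months), 5 middle-aged (12 to 13 months) and 6 aged (20 to 23 months) male mice. The CBA hypothalamus cohort held 7 young, 5 middle-aged and 8 aged males, the BALB striatum cohort 3, 5 and 5, and the BALB cerebellum cohort 5, 6 and 4, all at 2 to 3, 12 to 13 and 21 to 23 months. Hypothalamus labelled C57BL6/J came from 5 young (2 to 3 months) and 5 aged (22 to 24 months) males. Frontal cortex came from female BALB mice, 8 young (2 to 3 months) and 8 old (15 to 16 months), of which 4 and 4 arrays had scanner output and were analysed in the main comparison. None of the labels names a transgene, a deletion or a treatment, and the groups of a cohort differ by age alone as labelled. The C57BL/6 and BALB males came from an aged rodent colony.

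CC chemokines bind receptors of the Ccr family and CXC chemokines those of the Cxcr family, and both act by making receptor-bearing cells move up a gradient. Ccl2, Ccl12 and Ccl8 are known for drawing monocytes and other leukocytes, Ccl3, Ccl4 and Ccl5 draw T cells and monocytes, and Ccl6 is made by myeloid cells. Cxcl10 is a classic interferon-induced ligand of Cxcr3, Cxcl13 draws B cells through Cxcr5, and Cxcl16 is made as a membrane-bound ligand of Cxcr6. In the brain, microglia, border macrophages, astrocytes and blood vessels can all make such proteins. In bulk tissue, fewer cells of a type and less RNA per cell cannot be told apart.

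Of the members, 8 lie on chromosome 11 and 2 on chromosome 5 (RefSeq, GRCm38.p6). Ccl2 (gene ID 20296) spans chr11:82035577-82037452, Ccl12 (20293) spans chr11:82101845-82103399 and Ccl8 (20307) spans chr11:82115185-82116799. Farther along the same chromosome lie Ccl5 (20304) at chr11:83525778-83530518, Ccl6 (20305) at chr11:83587886-83593087, Ccl3 (20302) at chr11:83647843-83649378 and Ccl4 (20303) at chr11:83648624-83664683, the last pair with overlapping annotated spans. Cxcl16 (66102) spans chr11:70454389-70459984. The CXC pair on chromosome 5 is Cxcl10 (15945) at chr5:92346638-92348889 and Cxcl13 (55985) at chr5:95956939-95961068.

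The RefSeq promoter table used here held 6 of the 10 members, and the 4 windows with a match to any motif searched are shown. The windows of Ccl3 and Ccl6 held none. Each window is the 250 bases before the annotated start, written 5′ to 3′ on the gene's own strand, and capitals mark motif matches. The windows are chr5:92348890-92349139 on the minus strand for Cxcl10, chr5:95956689-95956938 on the plus strand for Cxcl13, chr11:82114935-82115184 on the plus strand for Ccl8 and chr11:82101595-82101844 on the plus strand for Ccl12.
Cxcl10: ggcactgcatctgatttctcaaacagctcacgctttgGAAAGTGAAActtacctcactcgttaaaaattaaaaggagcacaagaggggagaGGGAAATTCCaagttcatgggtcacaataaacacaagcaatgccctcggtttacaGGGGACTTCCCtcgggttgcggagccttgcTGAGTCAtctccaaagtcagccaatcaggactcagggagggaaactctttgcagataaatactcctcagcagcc
Cxcl13: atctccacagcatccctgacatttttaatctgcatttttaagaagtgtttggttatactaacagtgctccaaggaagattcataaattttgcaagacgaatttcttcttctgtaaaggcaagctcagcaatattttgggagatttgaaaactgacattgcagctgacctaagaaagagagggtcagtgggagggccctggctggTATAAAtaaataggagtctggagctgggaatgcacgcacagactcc
Ccl8: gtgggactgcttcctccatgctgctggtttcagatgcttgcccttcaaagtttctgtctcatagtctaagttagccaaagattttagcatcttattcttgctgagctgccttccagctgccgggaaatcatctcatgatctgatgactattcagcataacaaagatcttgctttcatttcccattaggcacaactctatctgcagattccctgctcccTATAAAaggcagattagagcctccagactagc
Ccl12: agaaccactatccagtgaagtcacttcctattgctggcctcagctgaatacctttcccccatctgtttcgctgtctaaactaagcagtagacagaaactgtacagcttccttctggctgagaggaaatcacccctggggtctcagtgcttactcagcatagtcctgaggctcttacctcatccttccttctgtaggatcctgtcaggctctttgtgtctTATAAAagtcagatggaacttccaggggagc

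Both strands were searched for the interferon-response core, which is GAAA repeated after a gap of any 2 bases, and for the NF-kB motif. A TATA box was searched as TATAAA. The core of an AP-1 site was searched as TGANTCA. In Cxcl10, the interferon-response core lies 213 to 204 bases before the start, and 936 of 27025 genes (3.46%) in the table hold it. The NF-kB motif occurs 3 times in Cxcl10, with 2 of the matches overlapping, and 8.23% of the genes hold it. TGANTCA lies 74 to 68 bases before the Cxcl10 start and occurs in 7.82% of the genes. Each of these occurs in 1 of the 6 members. TATAAA occurs in 3 of 6, Ccl8 (32 to 27 bases before the start), Ccl12 (31 to 26) and Cxcl13 (46 to 41), and in 14.3% of the genes. Such matches are letters in a window, not sites shown to be used.

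Values are log2 signals after quantile normalization within each cohort, so a difference of 1 is a doubling, and levels are not compared between probes or cohorts. A probe counted as well above background where the scanner software flagged it so. A gene was called where limma's B statistic, the log odds that a gene changed, was above 0 for any of its probes. A gene with 2 probes is given by its brighter one. Between 56.1% and 91.4% of probes were well above background on an array. Several arrays stood apart from their groups or their labels. In the BALB striatum cohort, the mean of 10 cerebellar marker genes was 13.20 to 14.76 on 12 of 13 arrays and 8.27 on aged array 3, so most of these arrays carry cerebellar transcripts. In the BALB cerebellum cohort the same list stood at 8.21 to 9.06 on young arrays, 8.14 to 10.83 on middle-aged arrays and 13.34 to 14.05 on aged arrays, so labelled age and tissue composition cannot be told apart there. Striatum and cerebellum of these BALB cohorts are therefore named as labelled, and whether samples were exchanged between them was not tested. In C57BL6/J hypothalamus, aged array 1 carried the list at 11.93, while the other 9 arrays stood at 6.78 to 7.77. In C57BL/6 cerebellum, young array 1 stood at 11.52 and the other 11 at 12.79 to 13.15. In BALB hypothalamus, young array 1 had 89.3% of probes well above background. In CBA hypothalamus, aged array 8 had the lowest microglial marker mean of its cohort (7.49, against 8.34 to 8.86 on the young arrays).

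In C57BL/6 cerebellum, all 10 members had a higher mean in aged than in young mice. The differences ran from 0.43 for Cxcl16 to 2.19 for Ccl4 on the log2 scale, with a median of 1.28 over the 10 genes against -0.0038 over all genes tested. For 8 of the 10, every aged array lay above every young array. Since this comparison chose the members, nothing is read from these counts. Across the cohort 92 of 23991 genes were called, 0.383%, and 1.75% of genes had aged arrays that all lay above the young ones.

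Ccl3, a ligand of Ccr1, had normalized log2 signals of 6.27, 4.97, 5.83 and 5.28 in the young mice and 4.59 and 4.55 in the middle-aged mice. In the aged mice it ran from 7.26 through a median of 7.64 to 7.72, a difference of 2.00 ± 0.22 (SE) or 4.00-fold. The aged arrays lay close together and clear of the young ones, whereas the middle-aged arrays lay below all 4 young arrays. Both middle-aged arrays were on a slide with no young array, so middle age and slide cannot be told apart in this cohort. The only aged array there, array 6, held the lowest aged value of Ccl3, Ccl6, Ccl8, Ccl12, Cxcl10 and Cxcl13. It did not for Ccl2, Ccl4, Ccl5 and Cxcl16. Its neighbour Ccl4 was read on 3 young arrays, since 1 spot carried an outlier flag, at 5.41, 6.64 and 4.75. Middle-aged values of Ccl4 were 4.87 and 2.84, and aged values ran from 7.44 through 7.83 to 7.93, a difference of 2.19 ± 0.45. Again no aged array overlapped a young one. Ccl5, which attracts T cells, stood at 8.90, 8.26, 8.96 and 8.00 in young mice, 8.42 and 7.33 in middle-aged mice, and 9.11 to 10.13 with a median of 9.65 in aged mice. This is a difference of 1.17 ± 0.27, and its dimmer probe gave 1.39 ± 0.28.

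Among the monocyte attractants, Ccl2 read 6.75, 6.25, 6.66 and 6.05 in young mice and 6.35 and 6.66 in middle-aged mice. It read 7.11 to 7.80 in aged mice, with a median of 7.42, and differed by 1.03 ± 0.17. Ccl8 read 5.50, 4.52, 5.86 and 4.60 in young, 5.52 and 4.21 in middle-aged, and 6.25 to 7.41 with a median of 6.71 in aged mice. Neither gene overlapped between young and aged arrays, and Ccl8 differed by 1.72 ± 0.34, or 3.29-fold. Ccl12, a mouse relative of Ccl2, stood at 7.95, 6.99, 8.09 and 7.11 in young, 6.75 and 5.72 in middle-aged, and 8.47 to 9.04 with a median of 8.77 in aged mice, a difference of 1.23 ± 0.26. Ccl6, the myeloid CC chemokine, had little spread within groups, with 8.71, 8.48, 8.87 and 8.41 in young, 8.22 and 8.34 in middle-aged, and 9.31 to 9.70 with a median of 9.57 in aged mice. Its difference of 0.91 ± 0.12 was smaller than those of Ccl3 and Ccl4.

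Cxcl13, the B cell attractant, was close to background in the young mice, where 2 of 4 arrays were well above it, at 4.16, 3.61, 4.10 and 3.79. It read 3.26 and 2.46 in middle-aged mice and 4.51 to 6.89 with a median of 5.79 in aged mice, all 6 of them well above background. The difference was 1.82 ± 0.39, with the widest aged spread of the 10 members (SD 0.82). Cxcl10 overlapped between the groups, because young array 3 read 8.64 beside 6.78, 5.97 and 6.56. Its middle-aged values were 6.42 and 4.85 and its aged values 7.90 to 8.89 with a median of 8.23, a difference of 1.33 ± 0.47. Cxcl16 also overlapped, with young values of 7.22, 7.06, 7.49 and 7.15, middle-aged values of 7.10 and 6.41, and aged values of 7.36 to 8.04. It had the smallest difference, 0.43 ± 0.16.

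**Figure D1:**
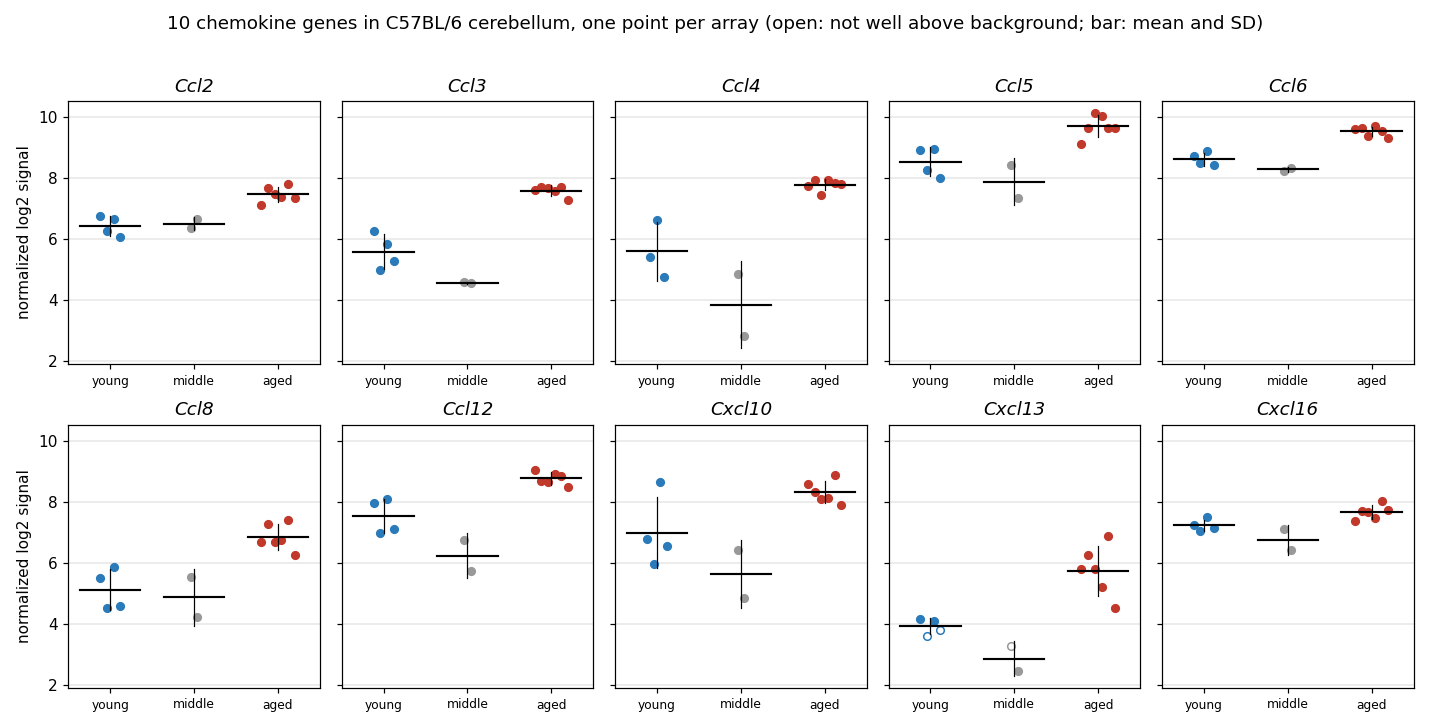
Normalized log2 signal (vertical axes) of the brighter probe of each of the 10 genes in young, middle-aged and aged C57BL/6 cerebellum. Each point is 1 array, open where not well above background, and bars give mean and SD; Ccl4 has 3 young points. Aged points lie clear above young points for 8 genes and overlap them for Cxcl10 and Cxcl16.

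The 3 slides that held both young and aged cerebellum arrays gave 29 within-slide differences, since Ccl4 had no young value on 1 of them, and 29 of 29 were above 0. This comparison chose the members, which also share arrays and slides, so nothing is read from that count. With slide as a fixed block 3 members had B above 0 (Ccl3, Ccl6 and Cxcl13) instead of 7. It was 5 without young array 1, 2 (Ccl3 and Ccl6) without young array 2 or 4, 3 (with Ccl2) without aged array 2, 3, 4 or 5, and 4 (with Ccl2 and Ccl5) without aged array 1. B was 0.02 for the members just past the threshold, Cxcl13 and Ccl12, and -0.07 for Ccl4 just short of it. A model-based background correction (normexp) lowered differences, to 0.99 for Ccl3, 1.13 for Ccl4, 0.66 for Ccl8 and 0.52 for Cxcl13. Other groups of genes were higher on the same arrays: the mean of 12 interferon-induced genes was 7.99 to 8.75 in young and 8.86 to 9.36 in aged mice, and that of 11 T cell genes 5.28 to 5.61 and 5.63 to 6.47. The microglial mean was 9.99 to 10.47 in young and 10.26 to 10.65 in aged mice, and that of 6 neutrophil genes 5.96 to 8.11 and 7.39 to 9.40. All 6 choroid plexus genes tested went the other way, with lower aged means and a median difference of -1.02. The part of these cells and tissues in the chemokine values was not tested. Aged array 1, whose choroid plexus marker mean was 7.32 while the highest aged array stood at 11.32, held the lowest aged value of Ccl2, Ccl5 and Cxcl16 and the highest of Ccl12.

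In BALB hypothalamus the means of all 10 members were again higher in aged than in young mice, by 0.44 (Cxcl16) to 2.44 (Ccl8) for 9 of them and by a measured 3.52 for Cxcl13, whose young arrays were at background. Some young arrays were not well above background for Ccl3, Ccl4, Ccl8 and Cxcl10 either. The median was 1.77 against 0.02 over all genes tested. It was the same with Cxcl13 at 3.19, its difference with young values raised to the lowest flagged signal of their array. Here too the comparison chose the members. Of the 18955 genes tested, 173 were called, 0.913%, and 0.755% had aged arrays that all lay above the young ones. Ccl4, Ccl6, Ccl8 and Cxcl13 were among the called and separated the age groups completely, and the other 6 overlapped.

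Cxcl13 went from background to a measurable signal: 0 of 7 young and 0 of 5 middle-aged arrays were well above background, against 6 of 6 aged arrays. Young values ran from 2.20 through a median of 2.34 to 3.29, middle-aged values were 2.69, 3.49, 4.46, 4.79 and 2.40, and aged values ran from 5.21 through 6.14 to 7.25. With each young value raised to at least the lowest signal flagged well above background on its array, the aged level was 9.12-fold higher. This is no lower bound, since middle-aged values of Cxcl13 up to 4.79 were not well above background. With normexp, a model-based background correction, the difference of Cxcl13 was 0.94. Ccl8 read 3.77 to 5.47 in young mice with a median of 4.65, and 5.42, 6.30, 6.42, 6.53 and 6.18 in middle-aged mice. In aged mice Ccl8 read 5.62 to 8.33 with a median of 7.00, a difference from young of 2.44 ± 0.38. The middle-aged mean was thus between the others, with 4 of 5 arrays above every young array. Ccl8 was well above background on 4 of 7 young, 5 of 5 middle-aged and 6 of 6 aged arrays.

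Ccl4 showed the same order. It read 2.64 to 4.78 in young mice with a median of 4.42, then 4.80, 6.38, 6.41, 5.39 and 5.60 in middle-aged mice, and 6.24 to 6.81 with a median of 6.58 in aged mice. Every middle-aged array lay above every young array for Ccl4, and the difference between aged and young was 2.34 ± 0.31. Ccl4 was well above background on 5 of 7 young, 5 of 5 middle-aged and 6 of 6 aged arrays. Ccl6 read 7.09 to 7.76 in young mice with a median of 7.42, then 7.85, 8.08, 7.83, 7.99 and 8.02, and 7.97 to 8.62 with a median of 8.26 in aged mice. Here the 5 middle-aged arrays lay above all 7 young arrays and the difference was 0.82 ± 0.12. Ccl3 had a mean of 4.18 ± 1.21 (SD) in young, 5.20 ± 0.45 in middle-aged and 5.92 ± 0.40 in aged mice, and was well above background on 3 of 7, 2 of 5 and 6 of 6 arrays. It overlapped through young array 6 at 6.28, above 5 of the 6 aged arrays, and young array 5 at 5.27, above aged array 2 at 5.26.

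For the other 5 members, as for Ccl3, the middle-aged mean lay within 1 SD of the young one. Ccl2 averaged 6.03 ± 0.90 (SD) in young, 6.41 ± 0.91 in middle-aged and 7.82 ± 0.62 in aged mice, and Ccl12 averaged 6.92 ± 0.52, 6.96 ± 0.54 and 8.08 ± 0.66. For both genes 4 of 6 aged arrays lay above all young arrays. Cxcl10 ranged from 2.53 to 7.51 among the young arrays and from 6.08 to 7.83 among the aged ones, and was well above background on 4 of 7 and 6 of 6. Its young SD of 1.62 was the widest of any member in this cohort. Ccl5 differed by 0.71 ± 0.39 and Cxcl16 by 0.44 ± 0.17, with overlapping groups.

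**Figure D2:**
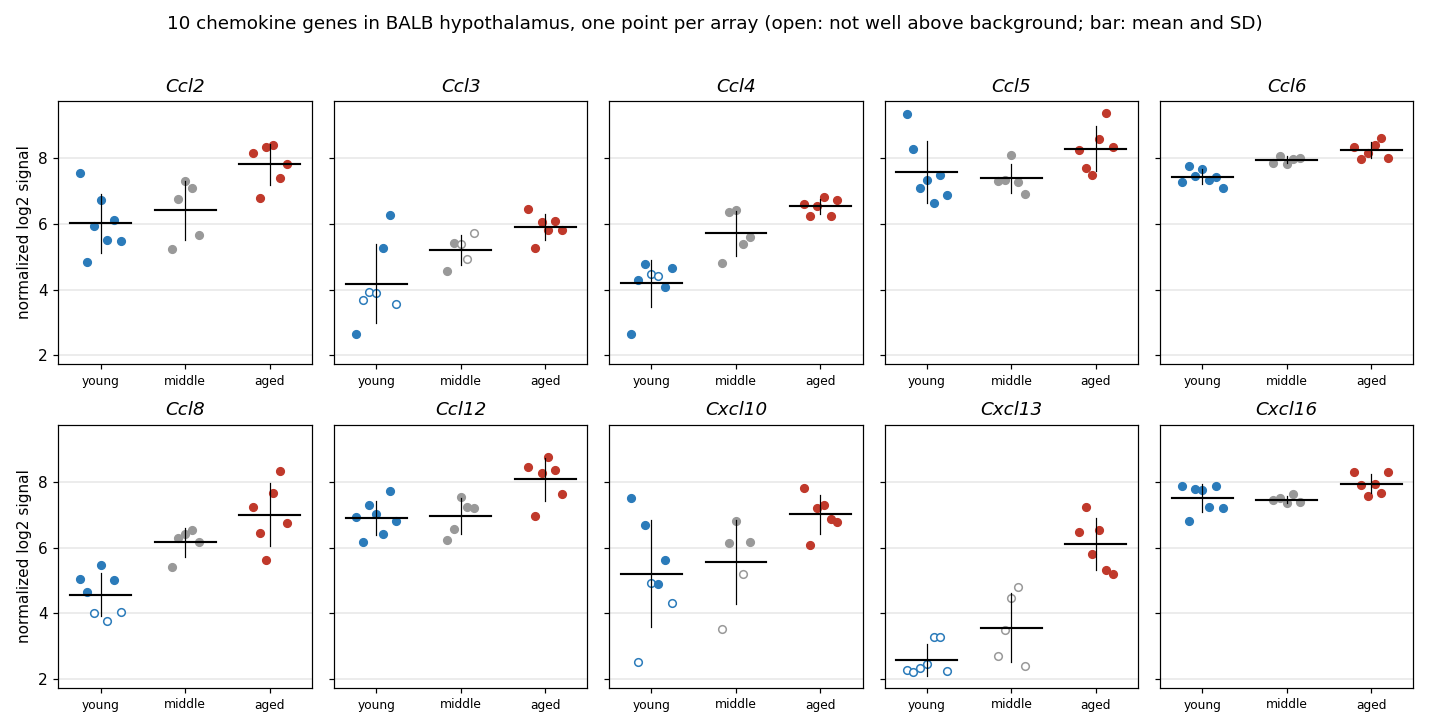
Normalized log2 signal (vertical axes) of the brighter probe of each gene in young, middle-aged and aged BALB hypothalamus, with 1 point per array, open where not well above background, and bars for mean and SD. All young and middle-aged points of Cxcl13 are open, and the middle-aged means of Ccl4, Ccl6 and Ccl8 lie between those of the other groups.

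Young array 1 carried the highest young values of Ccl2 (7.57), Ccl5 (9.35) and Cxcl10 (7.51) and the lowest of Ccl3 (2.65) and Ccl4 (2.64). Without it the difference of Ccl2 was 2.11 with B above 0, that of Cxcl10 2.24 and that of Ccl5 1.03, whereas Cxcl10 differed by 1.36 without young array 2 and Ccl5 by 0.49 without aged array 5. Without young array 1, Ccl4, Ccl6, Ccl8 and Cxcl13 were still called. Within the 3 slides that held both ages, 27 of 30 differences were above 0. Nothing is read from that count either, since this comparison also chose the members. With normexp the differences were 0.94 for Cxcl13, 0.66 for Ccl4, 0.87 for Ccl8, 0.48 for Ccl3 and 0.55 for Cxcl10. Ccl8 kept B above 0 under normexp but not in the authors' series table of log2 values, where its difference was 0.85. Interferon-induced genes averaged 7.61 to 8.19 in young, 7.65 to 8.47 in middle-aged and 7.87 to 8.72 in aged mice. The microglial mean was 10.21 to 10.53 in young and 10.38 to 10.64 in aged mice, the border macrophage mean 6.79 to 7.74 and 6.96 to 8.08, and the B cell mean 3.56 to 4.97 and 3.59 to 5.12. The neutrophil mean was 3.85 to 6.63 in young and 4.83 to 7.13 in aged mice, and the choroid plexus mean 6.64 to 7.29 and 6.93 to 7.99. All 4 neutrophil and all 5 choroid plexus genes tested had higher aged means, with medians of 0.79 and 0.45, and Trem2 (microglia), Ms4a7 (border macrophages) and Aqp1 (choroid plexus) were called. Their part in the chemokine values was not tested.

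CBA hypothalamus, a cohort that did not choose the members, showed one difference past an adjusted p of 0.05. Ccl4 was higher in aged mice, and it was the only member whose 8 aged arrays all lay above the 7 young arrays. It read 2.45 to 4.91 in young mice with a median of 3.70, then 4.03, 4.00, 3.07, 4.17 and 5.35 in middle-aged mice, and 5.07 to 7.48 with a median of 6.18 in aged mice. It was well above background on 2 of 7 young, 3 of 5 middle-aged and 8 of 8 aged arrays. The difference in measured signal was 2.60 ± 0.38 (SE), with 5 of 7 young arrays not well above background, and had an adjusted p of 0.00627 in limma over all probes tested. The filter asked for 7 young or aged arrays well above background, which the 8 aged arrays meet alone. The probe thus passed through the group where it was higher. With no filter on dim probes Ccl4 was still called. Middle-aged values of Ccl4 overlapped the young range, and 1 of 5 overlapped the aged range. The difference stayed between 2.40 and 2.81 with any 1 of the 20 arrays left out, ranged from 2.29 to 3.24 within the 5 slides, and was 0.86 with normexp. In this cohort 82 of 19754 genes were called, 0.415%, and 0.0405% had aged arrays that all lay above the young ones. Of the 7 members bright enough to be tested, 2 were called, and their median difference was 0.65 against -0.0056 over all genes tested. By limma, 5 of these 7 had an unadjusted p under 0.05 on the brighter probe. Over all genes it was 1603 of 19754 on any probe. Ccl4 and Ccl8 are among these members and met the filter through the aged group, where they were higher. Nothing is therefore read from the count or the median of the set.

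The second called member was Ccl5, through its dimmer probe only. That probe differed by 1.03 ± 0.24, with an adjusted p of 0.127 in limma and B of 0.09, and was well above background on 1 of 7 young and 6 of 8 aged arrays. These 7 arrays are the fewest that the filter lets through, so the probe passed through the group where it was higher. Ccl5 was not called with no filter, nor where every array of a group had to be well above background. The brighter probe of Ccl5 read 5.66 to 6.65 in young mice with a median of 5.95, then 6.15, 6.35, 5.90, 6.01 and 6.30, and 5.78 to 7.59 with a median of 6.75 in aged mice. Its difference of 0.67 ± 0.20 did not pass (adjusted p = 0.329 in limma). Ccl5 was called in 5 of the 20 fits that left out 1 array and Ccl4 in all 20. Both probes of Ccl5 had higher aged means, and 5 of 8 aged arrays lay above all young arrays on the brighter one.

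Ccl8 read 2.78 to 4.97 in young mice with a median of 3.87, then 5.26, 4.56, 5.08, 4.76 and 4.99 in middle-aged mice, and 3.58 to 6.32 with a median of 5.35 in aged mice. It was well above background on 2 of 7, 5 of 5 and 7 of 8 arrays. The 7 aged arrays meet the filter alone, so Ccl8 also passed through the group where it was higher. Its difference of 1.32 ± 0.34 did not pass (adjusted p = 0.177 in limma), and 6 of 8 aged arrays lay above all young arrays. Aged array 8 held the lowest aged value of Ccl8, Ccl6, Ccl12, Cxcl16, Ccl5, Ccl4, Ccl3 and Cxcl10. Without that array Ccl8 differed by 1.56 and the brighter probe of Ccl5 by 0.80, both with B above 0, so that 3 members were called, each with an adjusted p under 0.05 in limma. Ccl8 also had B above 0 with slide as a fixed block, at 1.52.

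The other members gave no call in CBA hypothalamus. Ccl2 differed by 0.65 (95% interval 0.14 to 1.16, adjusted p = 0.608 in limma) and Ccl12 by 0.63 (0.03 to 1.22, adjusted p = 0.740). For these monocyte attractants 6 and 4 of the 8 aged arrays lay above all young arrays. Ccl6 differed by 0.28 (-0.38 to 0.93) and Cxcl16 by 0.25 (-0.39 to 0.89), intervals that include the 0.82 and 0.44 measured in BALB hypothalamus. Without aged array 8 these differences were 0.59 and 0.51, while Ccl6 differed by 0.12 without aged array 7 and Cxcl16 by 0.12 without young array 1. Ccl3 was well above background on 0 of 7 young, 0 of 5 middle-aged and 4 of 8 aged arrays, and Cxcl10 on 0 of 7, 0 of 5 and 6 of 8. Both fell short of the filter and were not tested, and no fold is given. With no filter on dim probes Ccl3 had B above 0 and Ccl5 did not. Cxcl13 was not well above background on any of the 20 arrays.

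**Figure D3:**
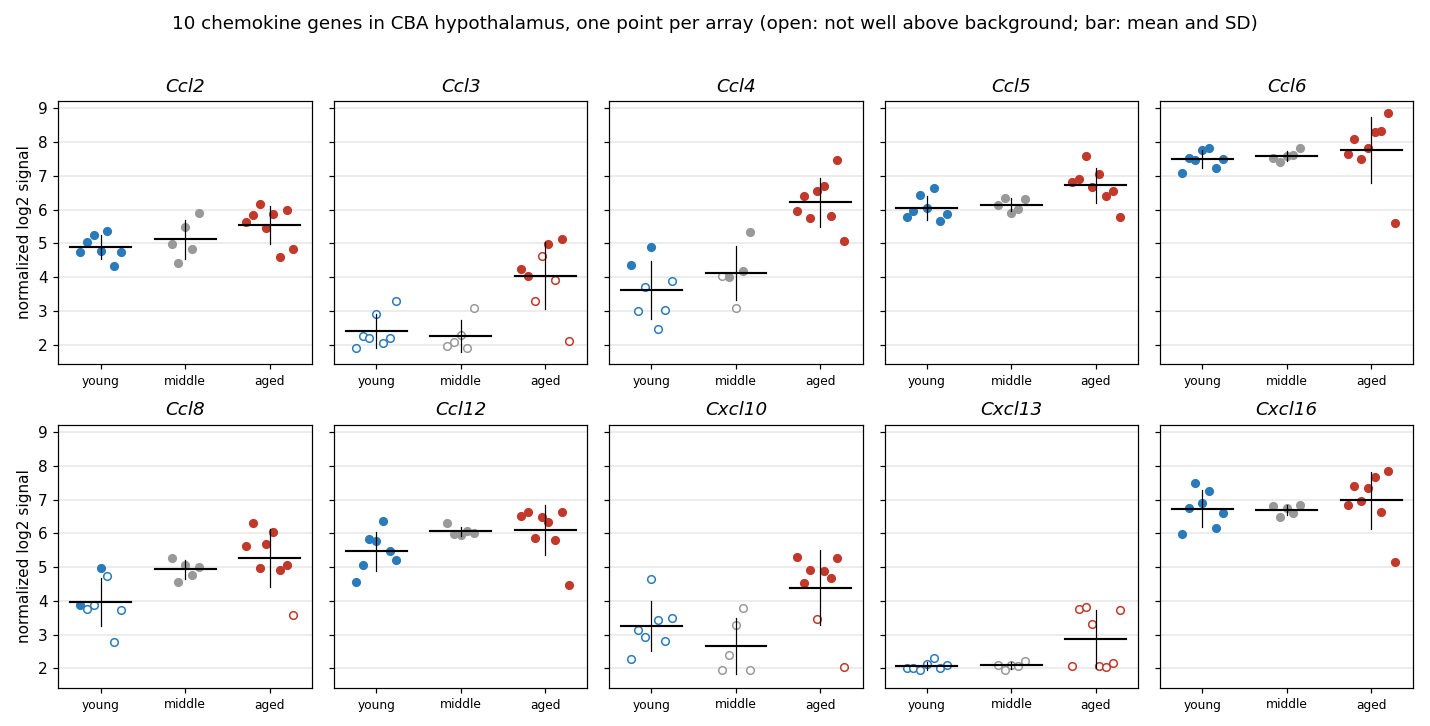
Normalized log2 signal (vertical axes) of the brighter probe of each gene in young, middle-aged and aged CBA hypothalamus, with 1 point per array, open where not well above background, and bars for mean and SD. Aged points of Ccl4 lie clear of young points, Cxcl13 has open points only, and the lone low aged point for Ccl6, Ccl12 and Cxcl16 is array 8.

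In hypothalamus of C57BL6/J mice no member was called, and 34 of 24016 genes were, 0.142%. The differences between aged and young mice were 0.12 for Cxcl16 to 0.81 for Ccl3, all 10 above 0, with a median of 0.40 against -0.021 over all genes tested. Each had an adjusted p of 0.997 in limma, and 0 had an unadjusted p under 0.05, against 1430 of the 24016 genes. The spread within each age group was large and shared by the members. Cxcl13 read 6.69, 6.11, 2.89, 1.37 and 1.69 on young arrays 1 to 5 and 1.91, 5.99, 1.87, 6.78 and 4.48 on aged arrays 1 to 5. It was well above background on 2 of the young and 3 of the aged arrays, and its difference was 0.45 with a 95% interval of -2.43 to 3.34.

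The same arrays were high for the other members. Ccl4 read 8.81, 8.53, 6.32, 5.66 and 6.30 in young mice and 5.84, 8.99, 6.22, 9.54 and 8.14 in aged mice. Ccl8 read 7.22, 7.87, 5.86, 4.92 and 6.22 in young mice and 4.70, 8.25, 5.43, 7.99 and 6.85 in aged mice. Cxcl10 read 7.91, 8.67, 6.56, 5.51 and 6.89 and then 6.06, 8.06, 6.22, 10.58 and 7.65. Young arrays 1 and 2 and aged arrays 2, 4 and 5 thus held the higher values in each case, and young and aged arrays overlapped fully. Each of the 5 slides held 1 young and 1 aged array. On 3 slides the aged array was higher for all 10 members and on the other 2 the young array was higher for all 10, which gives 30 of 50 differences above 0. Within slides the difference of Ccl3 ran from -2.63 to 3.34 and that of Ccl6 from -1.11 to 1.57.

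Interferon-induced genes followed the same arrays, with list means of 9.39, 9.48, 8.23, 7.97 and 8.49 on the young arrays and 7.98, 9.16, 8.17, 10.26 and 8.79 on the aged arrays. The microglial mean was 11.23, 11.12, 10.75, 10.66 and 10.64 on the young arrays and 10.54, 11.09, 10.81, 11.18 and 11.01 on the aged arrays. The T cell mean, 5.57 to 6.58, was highest on aged array 4. Their part in the chemokine values was not tested. Without aged array 1, which carried cerebellar transcripts, the differences of the 10 members ran from 0.28 to 1.24 and none was called.

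**Figure D4:**
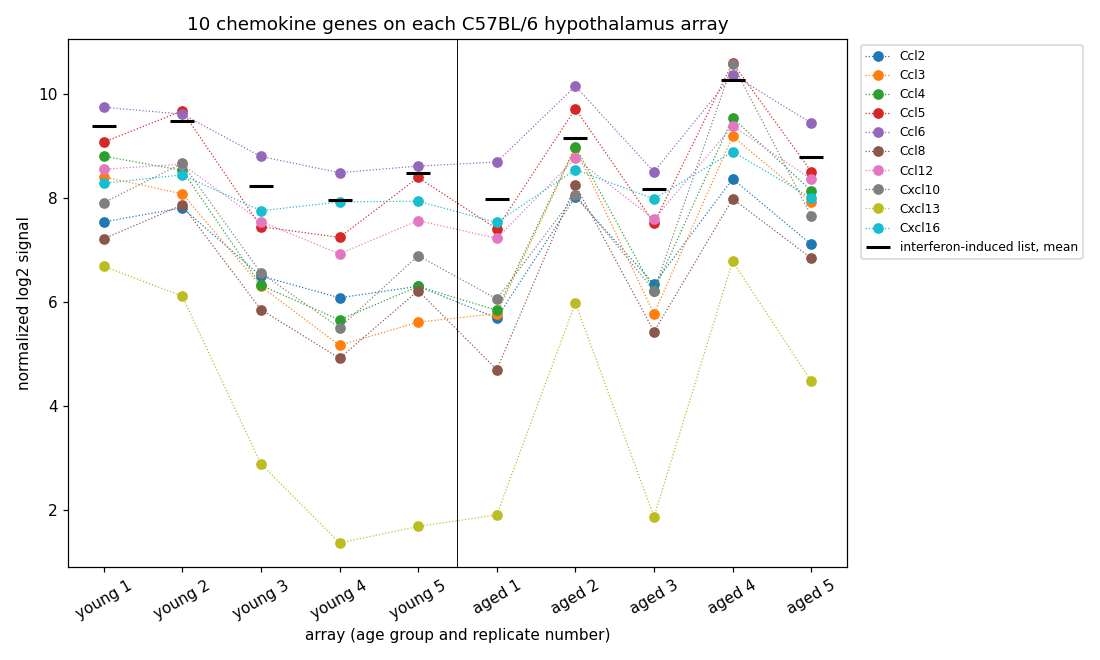
Normalized log2 signal (vertical axis) of the 10 genes on each of the 5 young and 5 aged C57BL6/J hypothalamus arrays (horizontal axis), 1 colour per gene, with a black dash for the mean of the interferon-induced genes. The genes rise and fall together from array to array, with Cxcl13 between 1.37 and 6.78, and not with the age group.

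No member was called in BALB striatum, BALB frontal cortex or BALB cerebellum. In the striatum cohort limma called 0 of 22141 genes (0%), with 162 genes but none of the members at an unadjusted p under 0.05, and the members differed by -0.59 (Ccl5) to 0.42 (Cxcl13). Ccl3 read 5.11, 4.72 and 5.29 in young mice, 3.18, 3.70, 2.22, 3.38 and 3.63 in middle-aged mice and 3.23, 5.45, 7.21, 3.75 and 2.93 in aged mice. It was well above background on every young array, on no middle-aged array and on only some aged arrays. The value of 7.21 came from aged array 3, the array without the cerebellar transcripts of its group. That array was the highest aged array for all 10 members, among them Ccl4 (7.89), Ccl6 (9.38), Ccl8 (9.49) and Cxcl13 (6.35). Its microglial marker mean of 11.35 was the highest of the cohort. Without it the members differed by -1.20 (Ccl3) to 0.05 (Cxcl13), with B below 0 for all 10.

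In frontal cortex limma called 0 of 22024 genes (0%), with 1358 at an unadjusted p under 0.05, 1 of them a member (Ccl12), and the differences between old and young females ran from -0.86 to 1.26. Ccl3 was the largest of these, with 6.00, 4.40, 3.55 and 3.06 in young and 6.05, 6.32, 4.83 and 4.85 in old mice (1.26 ± 0.63, adjusted p = 0.841 in limma). Ccl8 read 7.33, 4.41, 4.32 and 5.00 in young and 5.88, 7.03, 7.15 and 5.73 in old mice, a difference of 1.18 ± 0.67 with the same adjusted p. Both overlapped through young array 1. Ccl3 was well above background on 1 of 4 young and 4 of 4 old arrays, and Ccl8 on 2 of 4 and 4 of 4. The filter asked for 4 arrays here, so both passed through the group where they were higher. Ccl12 went the other way at -0.86 ± 0.37 (adjusted p = 0.841 in limma), with 8.73, 7.65, 7.09 and 7.77 in young and 7.64, 6.91, 6.73 and 6.51 in old mice. Ccl2 read 6.79, 6.50, 5.27 and 6.52 in young and 10.98, 5.72, 5.40 and 5.47 in old mice. Its difference of 0.62 became -0.73 without old array 2, on which 50 genes lay more than 4 log2 units above every other array. Ccl2 was read from 1 spot on each of the 8 arrays. Cxcl13 was well above background on 1 of 8 arrays and was not tested. Markers of other regions moved with age here: all 10 striatal markers were higher in old mice, with a median difference of 1.69, all 6 choroid plexus markers were higher (1.11) and all 8 hypothalamic markers tested were lower (-0.56), none of them called. The striatal list mean was 10.27 to 14.78 on young and 13.00 to 15.01 on old arrays. Their part in the chemokine values was not tested.

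In the BALB cerebellum cohort 1659 of 22333 genes were called, 7.43%, together with 9 of the 10 cerebellar marker genes, and none of the members. Their differences were -0.57 (Ccl8) to 0.71 (Ccl5), with adjusted p-values of 0.334 to 0.986 in limma and 0 unadjusted p-values under 0.05. Of the 22333 genes, 6867 had an unadjusted p under 0.05 in limma on any probe. All 10 members were well above background on all 15 arrays, Cxcl13 included, at 6.15, 6.40, 5.93, 6.53 and 6.78 in young and 5.49, 5.55, 6.42 and 6.31 in aged mice. Ccl8 read 7.19, 8.23, 8.24, 9.92 and 9.53 in young mice, 4.94 to 8.42 in middle-aged mice and 9.58, 7.08, 7.66 and 7.90 in aged mice. Young and aged arrays overlapped for each of the 10 genes.

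**Figure D5:**
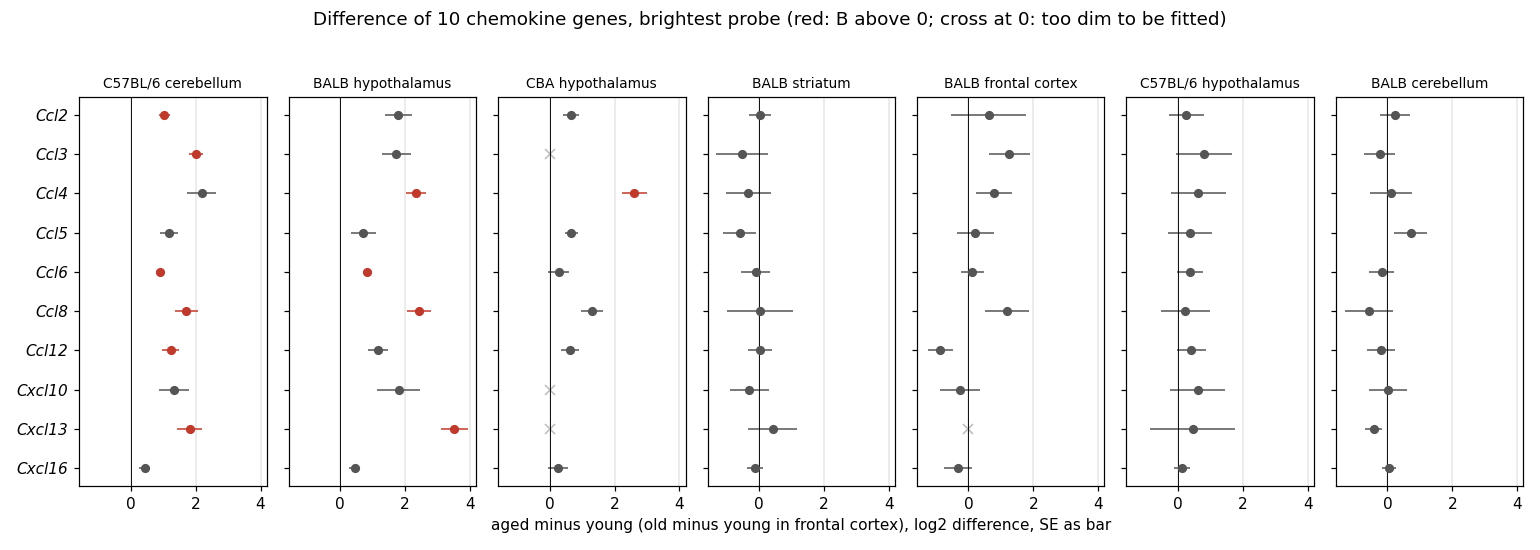
Difference in normalized log2 signal between aged and young mice (old and young in frontal cortex; horizontal axes) for the brighter probe of each of the 10 genes in the 7 cohorts, with the SE as a bar. Red points have B above 0, crosses at 0 mark genes too dim to be fitted, Ccl5 was also called by its dimmer probe in C57BL/6 cerebellum and CBA hypothalamus, and Cxcl13 in BALB hypothalamus rests on young arrays at background. Differences above 0 fill the first 3 panels, and only Ccl4 is red in CBA hypothalamus.

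Whether the difference of any member differed between strains or regions was not tested, and the cohorts were normalized separately. Read side by side, Ccl4 differed by 2.19 in C57BL/6 cerebellum, 2.34 in BALB hypothalamus, 2.60 in CBA hypothalamus, 0.62 in C57BL6/J hypothalamus, 0.78 in frontal cortex, 0.12 in BALB cerebellum and -0.33 in BALB striatum. Cxcl16 was the smallest of the 10 in both cohorts that chose the members and in C57BL6/J hypothalamus.

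No other chemokine gene was called outside BALB cerebellum. Of 26 other chemokine genes, 25 were on the arrays, and 0 were called among the 20 tested in C57BL/6 cerebellum, the 13 in BALB hypothalamus, the 11 in CBA hypothalamus, the 15 in striatum, the 12 in frontal cortex and the 18 in C57BL6/J hypothalamus. Over all genes the share called was 0.383%, 0.913%, 0.415%, 0%, 0% and 0.142% in these cohorts in turn, and 7.43% in BALB cerebellum. At such shares, no call in a list this short says little about the list. C57BL/6 cerebellum gave them a median difference of 0.24, BALB hypothalamus one of 0.29 and CBA hypothalamus one of -0.06. In the first pair of these cohorts the members had been chosen as higher, so the other genes are no contrast to them. At an unadjusted p under 0.05 in limma there were 0 in CBA hypothalamus, 0 in striatum, 1 in frontal cortex and 1 in C57BL6/J hypothalamus. Over all genes, on any probe, the counts were 1603 of 19754, 162 of 22141, 1358 of 22024 and 1430 of 24016. In BALB cerebellum 1 of 16 tested was called, Cx3cl1, the neuronal ligand of the microglial receptor Cx3cr1, with a difference of -1.60 ± 0.15. That cohort is the one whose aged arrays carry more cerebellar transcripts, and its microglial mean was 11.12 to 11.33 on the 5 young arrays and 9.98 ± 0.49 (SD) over the 4 aged arrays. Their part in these differences was not tested.

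Receptor genes were not called in the same 6 cohorts either. Of 22 chemokine receptor genes, 19, 11, 8, 15, 11 and 15 were tested there and 0 were called, with 2 at an unadjusted p under 0.05 in CBA hypothalamus, 0 in striatum, 1 in frontal cortex and 0 in C57BL6/J hypothalamus by limma. The shares called and the unadjusted counts over all genes are those given for the other chemokines. Beside them, no result about the receptors is read from these counts. Ccr1, a receptor of Ccl3 and Ccl5, was well above background on no young or aged array of any cohort, and Ccr8, the receptor of mouse Ccl8, on at most 1 array of an age group. Ccr2, which binds Ccl2 and Ccl12, was well above background on 4 of 4 young and 5 of 6 aged C57BL/6 cerebellum arrays, with a difference of 0.12 ± 0.24, and on none of the CBA arrays of these ages. Cxcr3, the receptor of Cxcl10, differed by 0.92 ± 0.20 in C57BL/6 cerebellum and by 0.60 ± 0.16 in BALB hypothalamus, with B below 0 in both. Cxcr6, the receptor of Cxcl16, differed by 0.77 ± 0.43 and 1.34 ± 0.51 in the same cohorts, also with B below 0. Cxcr5, the receptor of Cxcl13, was well above background on 1 of 4 young and 5 of 6 aged C57BL/6 cerebellum arrays and on 1 of 7 and 0 of 6 in BALB hypothalamus. Among the receptors called in BALB cerebellum, Ackr1, a scavenging receptor of vessels and red cells, was higher by 1.81 ± 0.29, and Ccr6 and Cx3cr1 had differences of -1.51 and -1.44.

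Members also varied together among animals of 1 age. After each age group's mean was subtracted, the 45 pairs of members in C57BL/6 cerebellum had a median Pearson correlation of 0.55 over 12 arrays, while members and all other genes had a median of 0.04. The members' median correlation with the mean of the microglial list was 0.58 there and with that of the interferon-induced list 0.51, so correlation of this size was not particular to pairs of members. In CBA hypothalamus the 21 pairs of members bright enough had a median of 0.57 over 20 arrays, or 0.35 without aged array 8. Over all 20 arrays, aged array 8 included, their median correlation with the microglial list was 0.62 and with border macrophages 0.49. With T cells it was 0.47 and with the interferon-induced list 0.22. In BALB hypothalamus the median of 36 pairs was 0.21 over 18 arrays. There the members' median correlation was 0.03 with the microglial list and -0.20 with T cells. It was 0.34 with border macrophages and 0.29 with the interferon-induced list. These correlations are a description, since the points share slides and normalization.

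The genes most like each member differed by cohort. In CBA hypothalamus Ccl6 was closest to Cd68, Trem2 and Tbxas1, which are expressed by macrophages and microglia, with correlations of 0.98, 0.97 and 0.97 over 20 arrays among 19593 genes. Without aged array 8 these were 0.91, 0.87 and 0.86. Ccl5 was closest to H2-Aa, H2-Eb1 and Cd74, genes of MHC class II presentation, at 0.86, 0.85 and 0.83 (0.77, 0.78 and 0.73 without that array). Ccl8 was closest to Parp12, Psmb8 and Bst2, all known as interferon-induced, at 0.87, 0.87 and 0.86 (0.79, 0.81 and 0.80 without it). Cxcl16 was closest to Bace2, Icam1 and Tor4a at 0.96, 0.96 and 0.95, and Ccl12 to Nrros, Nat8f5 and Rab32 at 0.90, 0.89 and 0.89. Ccl2 was closest to an unnamed transcript, Rdh10 and Zmynd15 at 0.87, 0.82 and 0.81, and Ccl4 to Pigz and a pair of Riken transcripts at 0.83, 0.80 and 0.79.

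In BALB hypothalamus the closest genes were others. Ccl12 was closest to an unnamed transcript, Osmr, a cytokine receptor subunit, and Gbp2b, an interferon-induced GTPase, at 0.87, 0.85 and 0.82 over 18 arrays. Ccl2 was closest to Gpr182, Mrgprf and Slc22a6 (0.84, 0.83 and 0.83), Ccl3 to Erdr1, Ebf2 and Nr2f1 (0.83, 0.80 and 0.80), and Cxcl16 to Pitx3, Atf5 and Aldh1a1 (0.83, 0.82 and 0.81). Ccl6 had its highest correlations at 0.73, 0.71 and 0.71, with an unnamed transcript, Wnt5a and H1f10, and Ccl8 at 0.77, 0.76 and 0.75, with Stimate, Stk38l and Cdyl2. Cxcl10 was closest to Bmp8a, Med7 and Nup54, each at 0.83. Ccl4 and Ccl5 had their highest values, 0.88 with Ythdc2 and 0.93 with an unnamed transcript, which became 0.72 and 0.87 without young array 1.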

How the data were processed

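Intensity values were deposited by the authors as Agilent Feature Extraction output, 1 processed signal per spot on a linear scale after background subtraction. The submitters' processing notes name version 9.1 and limma; per the file headers each cohort was read with 1 release, a later one than 9.1 in all cohorts but BALB hypothalamus. The authors also deposited a table of log2 values of all 104 samples, used as an alternative. Scanner output was read for 96 arrays, and 8 frontal cortex samples entered only through that table.

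Control and outlier-flagged spots were left out, spots of a probe averaged, and log2 signals quantile normalized within each cohort (R 4.3.3, limma 3.58.1). Testing took the probes well above background on N or more young and aged arrays, where N is the size of the smaller group. All ages of a cohort were fitted together with lmFit and eBayes (prior proportion 0.01), and p-values adjusted by Benjamini-Hochberg over all probes tested. The authors report single housing of their mice at study, and nothing names litters or earlier cages. The p-values therefore measure the spread between these samples. The number of arrays limits the precision. The genes named were the 10 members, other chemokine or receptor genes with B above 0, the members' receptors (1 gene is not reported here), and per member the 3 genes of highest correlation. The members and lists were chosen with earlier results of these data known. Alternatives covered scaling, background correction, dim-probe filter, slide, replicate number, the series table, the call threshold and each array left out. The fit was tested on simulated data.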

Additional observations from a re-analysis of the deposited data

Results flagged for a closer look

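In 9 of 132 groups of 4 to 8 arrays (6.82%), 1 array lay far from the rest of its group for a member, where chance gives about 1 in 20. In C57BL/6 cerebellum, aged array 6 was low for Ccl3 (normalized log2 signal 7.27) and aged array 3 was low for Ccl4 (7.44), both still above every young array. In CBA hypothalamus, aged array 8 was low for Ccl6 (5.60), Ccl12 (4.46) and Cxcl16 (5.15), on the array with the lowest microglial marker mean of the cohort. In BALB frontal cortex, old array 2 was high for Ccl2 (10.98). In BALB cerebellum, middle-aged array 2 was far from the other middle-aged arrays for Ccl3 (6.87), Ccl4 (7.90) and Cxcl16 (8.30).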

How the results depend on the processing

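In BALB hypothalamus the 4 members called kept that number in the settings tried, except 6 with normexp, and with 1 array left out the count was 4 to 6. No member was called under any setting in striatum, frontal cortex, C57BL6/J hypothalamus or BALB cerebellum. In C57BL/6 cerebellum 92 genes and 7 members became 42 and 3 with slide as a fixed block and 13 and 2 at an adjusted p under 0.05, and ran from 18 to 129 and 2 to 8 with 1 array left out. In CBA hypothalamus 82 genes and 2 members became 49 and 1 with the middle-aged arrays left out and 27 and 1 at that adjusted p, and the members were 1 where every array of a group had to be well above background and 1 in the series table. With 1 array left out they ran from 53 to 144 and 1 to 3. Frontal cortex went from 0 genes to 39 with slide as a fixed block, 25 as a random block and 21 in the series table (0 to 24 with 1 array left out). C57BL6/J hypothalamus went from 34 genes to 22 with 75th percentile scaling, 21 with no filter, 19 with slide as a fixed block, 149 as a random block and 1 at the adjusted p (0 to 75 with 1 array left out). BALB cerebellum went from 1659 genes to 750 with slide as a fixed block, 1032 with 2 age groups and 3661 at the adjusted p. The fixed block leaves 3 to 13 residual degrees of freedom, and the cause of these changes was not tested.

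Replicate numbers only number the samples of a group. Same-numbered young and aged arrays had correlations of their deviations from -0.071 to 0.050 in C57BL/6 cerebellum and from -0.17 to 0.56 in CBA hypothalamus. With the replicate block C57BL/6 cerebellum had 0 genes and 0 members called, with 133 and 4 in BALB hypothalamus, 130 and 4 in CBA hypothalamus, 0 genes in C57BL6/J hypothalamus and 927 in BALB cerebellum. The block turned Ccl8 (-0.11) and Cxcl16 (0.036) in striatum and Cxcl10 (0.96) in frontal cortex.

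Changes of sign were met only where no member was called. In striatum normexp gave -0.019 for Ccl2, 0.049 for Ccl3 and 0.031 for Cxcl16. Slide as a fixed block gave 0.72 for Ccl3, 0.077 for Ccl4, -1.08 for Ccl8 and 0.035 for Cxcl16, and as a random block -0.086 for Ccl8. The series table gave 0.042 for Ccl3 and 0.037 for Cxcl16 there, and 0.083 for Cxcl10 in frontal cortex. In BALB cerebellum 75th percentile scaling gave -0.016 for Ccl4, -0.018 for Cxcl10 and -0.0025 for Cxcl16, normexp -0.015 for Ccl2, and slide as a fixed block -0.62 for Ccl2, -0.42 for Ccl4, -0.37 for Cxcl10 and -0.18 for Cxcl16.

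With 1 array left out the striatum differences ran from -0.67 to 0.62 for Ccl8, -0.21 to 0.30 for Ccl12, -0.48 to 0.11 for Ccl6, -0.12 to 0.31 for Ccl2, -0.93 to 0.092 for Ccl4, -0.50 to 0.062 for Cxcl10 and -0.30 to 0.066 for Cxcl16. In frontal cortex they ran from -0.77 to 0.14 for Cxcl10, -0.20 to 0.69 for Ccl5, -0.14 to 0.33 for Ccl6 and -0.73 to 1.12 for Ccl2. In C57BL6/J hypothalamus they ran from -0.18 to 0.71 for Ccl8, -0.18 to 1.19 for Cxcl13, -0.055 to 0.61 for Ccl2, -0.079 to 0.72 for Ccl5, -0.11 to 1.02 for Cxcl10 and -0.054 to 0.28 for Cxcl16. In BALB cerebellum they ran from -0.27 to 0.60 for Ccl4, -0.33 to 0.38 for Cxcl10, -0.41 to 0.055 for Ccl12, -0.058 to 0.18 for Cxcl16, -0.64 to 0.097 for Ccl6, -0.063 to 0.80 for Ccl2 and -0.58 to 0.071 for Ccl3. Correlations without young array 1 or aged array 8 were added after seeing the data. Signal near background limits the dim members, and normexp lowered their differences.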
